A study of Mus musculus with 9 samples.

Results

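A set of 8 genes that mark the arterial or the venous side of the vascular tree were followed in endothelial cells of the mouse heart. They were taken by gene symbol and make up 8 of the 18094 genes of the deposited table. Bmx, Stmn2, Fbln5, Mgp and Clu are the 5 arterial markers, and Nr2f2, Plvap and Emcn are the 3 venous markers. By the annotation, Stmn2 and Emcn lie on chromosome 3, Mgp on 6, Nr2f2 on 7, Plvap on 8, Fbln5 on 12, Clu on 14 and Bmx on X. RNA sequencing libraries were made from cardiac endothelium that had been captured on magnetic microbeads, with 3 libraries in each of 3 groups. The groups were BPH/2J mice of 22 weeks, BPH/2J mice of 4 weeks and BPN/3J mice of 22 weeks. Selective breeding gave the hypertensive strain BPH/2J and, alongside it, the normotensive strain BPN/3J. The labels give no treatment for any group. Each blood pressure state is thus represented by 1 inbred strain, and libraries of BPN/3J mice of 4 weeks were not analysed here. The comparison of 22-week BPH/2J with 22-week BPN/3J addresses strain, and that of 22-week with 4-week BPH/2J addresses age within the hypertensive strain. The comparison of 4-week BPH/2J with 22-week BPN/3J differs in both, and their parts cannot be told apart. Nothing in the labels says whether the libraries of a group came from separate animals, so p-values measure the spread between libraries, which may be technical.

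Arteries and veins are lined by endothelial cells with different gene programmes, set up in the embryo by Notch signalling on the arterial side and by Nr2f2 on the venous side. In the adult heart most endothelial cells line capillaries, which show a gradient between these programmes, and arterial and venous cells are a minority of any whole preparation. The chambers are lined by endocardium, an endothelium that shares several markers with veins and large vessels, Emcn, Plvap and Bmx among them. Mgp and Clu are also made by smooth muscle and other wall cells, so none of these genes belongs to a single cell type.

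Libraries held 28806840 to 32913813 counted reads, and 15277 genes passed the filter on low counts, all 8 markers among them. The lowest count of a marker was 271, for Bmx, and the highest was 22842, for Emcn. Values are CPM, counts relative to the library total, scaled by the trimmed mean of M values (TMM). The preparations carried endothelial RNA at high levels in every library: 12 pan-endothelial genes summed to between 16840 and 17200 CPM in 22-week BPH/2J, between 15210 and 16910 CPM in 4-week BPH/2J and between 14860 and 15510 CPM in 22-week BPN/3J. Cdh5, the endothelial cadherin and the gene of this list with the highest mean over the 9 libraries, averaged 3049 CPM in 22-week BPH/2J, 3181 CPM in the 4-week libraries of that strain and 2405 CPM in 22-week BPN/3J. Among the 22-week BPH/2J libraries, replicate 3 stood apart in several of the markers, and results that rest on it are given with and without it. In whole preparations, fewer cells of a type and less RNA per cell cannot be told apart.

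Bmx and Emcn, which were both higher at 22 than at 4 weeks in BPH/2J, and Nr2f2, which did not pass the test in any comparison, are shown by the 300 bases around their start sites, 250 before and 50 after. The sequences are from RefSeq on GRCm38.p6, which is not the build mm9 of the counts, and are printed on the strand of the gene. Capitals mark matches to motifs of factors that act in blood vessels, described after the sequences.
Bmx: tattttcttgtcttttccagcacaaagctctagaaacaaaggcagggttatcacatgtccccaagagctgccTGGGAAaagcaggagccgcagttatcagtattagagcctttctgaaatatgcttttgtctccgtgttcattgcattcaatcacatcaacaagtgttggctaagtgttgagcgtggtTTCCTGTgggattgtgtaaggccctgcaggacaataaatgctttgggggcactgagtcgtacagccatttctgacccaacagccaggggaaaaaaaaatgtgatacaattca
Emcn: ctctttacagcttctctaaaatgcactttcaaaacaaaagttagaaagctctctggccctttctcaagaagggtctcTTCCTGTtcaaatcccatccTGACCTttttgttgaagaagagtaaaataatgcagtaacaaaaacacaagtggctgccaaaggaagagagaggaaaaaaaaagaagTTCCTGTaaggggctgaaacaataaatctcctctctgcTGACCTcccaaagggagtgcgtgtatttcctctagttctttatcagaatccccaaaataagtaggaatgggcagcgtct
Nr2f2: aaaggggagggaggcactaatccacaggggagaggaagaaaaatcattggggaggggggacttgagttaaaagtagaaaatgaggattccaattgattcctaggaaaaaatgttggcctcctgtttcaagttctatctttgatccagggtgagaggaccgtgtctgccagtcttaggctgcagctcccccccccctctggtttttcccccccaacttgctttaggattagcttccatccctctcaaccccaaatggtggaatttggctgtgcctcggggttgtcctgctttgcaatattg
The Bmx window lies at chrX:164258144-164258443 on the minus strand, that of Emcn at chr3:137340828-137341127 on the plus strand and that of Nr2f2 at chr7:70366697-70366996 on the minus strand.

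Promoter entries were matched by symbol for 4 of the 8 markers, Bmx, Fbln5, Nr2f2 and Emcn, with 2 start sites for Fbln5. A search on both strands covered 5 motifs: ACAGGAA of ETS factors, TGGGAA of the Notch partner RBPJ, AGGTCA as the half-site of COUP-TF nuclear receptors such as Nr2f2, TGTTTAC of forkhead factors and TATAAA of the TATA box. The Bmx window held the RBPJ letters 178 bases before the start and the ETS letters, as TTCCTGT, 62 bases before it. The Emcn window held the ETS letters 173 and 67 bases before the start and the COUP-TF half-site, as TGACCT, 153 and 29 bases before it. The Nr2f2 window held none of the 5. Of the Fbln5 windows, one held the RBPJ letters 153 bases before the start and the other the COUP-TF half-site 1 base before it. No match overlapped another. Such short motifs are common: among 32544 promoter windows of the same length, 8.68% held the ETS letters, 25.4% the RBPJ letters, 16.2% the COUP-TF half-site, 3.66% the forkhead letters and 13.6% the TATA box. The motifs were chosen after the sequences had been seen, and a match describes letters, not binding.

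Levels of the markers were compared with each other per kilobase of the deposited gene length. Mgp, a secreted matrix protein that inhibits calcification, had the highest level in each group, with a mean of 276.5 CPM per kilobase in BPH/2J of 22 weeks, 160.3 in BPH/2J of 4 weeks and 270.5 in BPN/3J. Emcn, a sialomucin of the endothelial surface, came next, at 124.0, 78.0 and 89.2 CPM per kilobase in the same groups. Stmn2, a microtubule regulator best known from neurons, was the third, at 82.4, 42.7 and 49.7 CPM per kilobase. The ranges of these 3 genes did not overlap each other within any group. Plvap, which forms the diaphragms of caveolae and fenestrae, Fbln5, which takes part in elastic fibre assembly, and Clu, a secreted chaperone, formed a middle group. In 22-week BPH/2J Plvap ran from 23.2 to 62.7 CPM per kilobase, across the whole range of Fbln5, 27.8 to 31.3, and into that of Clu, 16.7 to 26.4. In 4-week BPH/2J Fbln5, at 24.6 to 25.2 CPM per kilobase, lay within the range of Plvap, 19.3 to 28.9, and Clu was below both. In 22-week BPN/3J Plvap was above both others, and Fbln5, at 20.3 to 26.8 CPM per kilobase, and Clu, at 18.2 to 25.3, overlapped. The nuclear receptor Nr2f2 and Bmx, a tyrosine kinase of the Tec family, had the lowest levels. Bmx averaged 8.22 CPM per kilobase in BPH/2J of 22 weeks, 3.45 in BPH/2J of 4 weeks and 6.59 in BPN/3J, against 5.68, 5.16 and 5.36 for Nr2f2. Bmx was thus the lowest of the 8 in 4-week BPH/2J, below Nr2f2 in every library of that group, whereas the ranges of the pair overlapped in both 22-week groups.

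**Figure D1:**
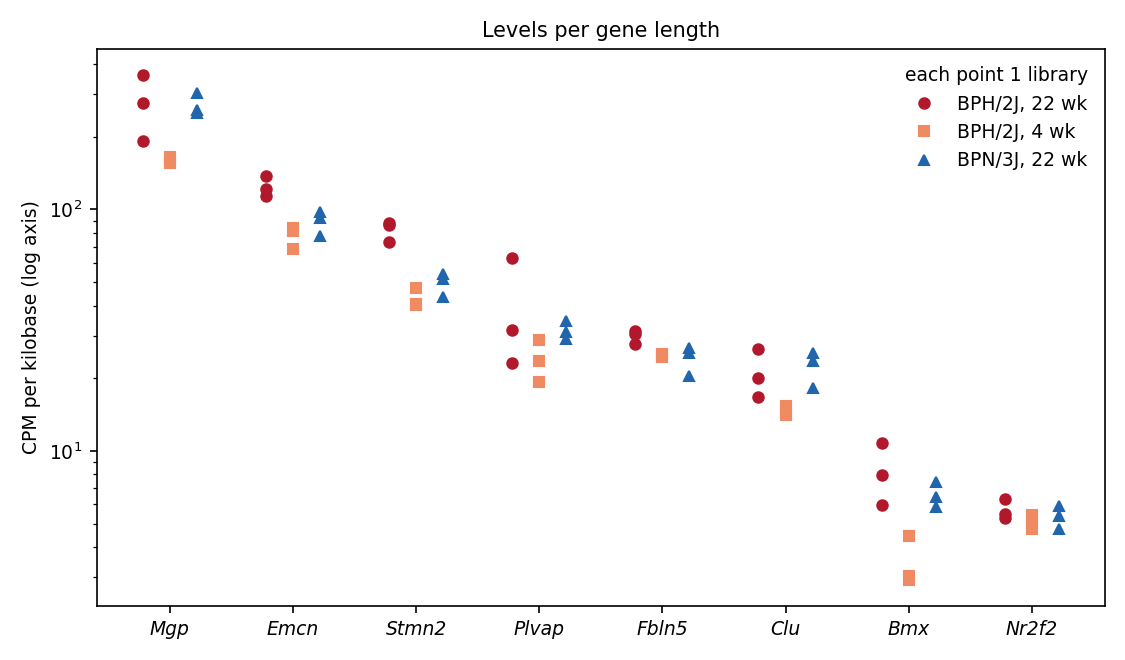
Level of each marker in CPM per kilobase of gene length, on a log axis, with 1 point per library and colours and shapes for the 3 groups. Mgp, Emcn and Stmn2 lie above the other 5 markers in each group, and Bmx drops below Nr2f2 in 4-week BPH/2J.

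Against the normotensive strain at 22 weeks, hypertensive BPH/2J endothelium had more Stmn2, Emcn and Fbln5 RNA, by 1.66-fold, 1.39-fold and 1.23-fold, and the other 5 markers did not pass the test. These were 2 of the 5 arterial and 1 of the 3 venous markers. Of the 8 markers 3 were called higher and 0 lower, where 38.0% of the 15277 tested genes were called, 19.8% higher and 18.2% lower. A call is an adjusted p under 0.05 in the quasi-likelihood test of edgeR, adjusted by Benjamini and Hochberg's method across the whole table. At an unadjusted p under 0.05, too, 0 markers were lower, and DESeq2 and limma-voom called 0 lower. The median log2 difference was 0.31 over the 8 markers and 0.02 over all tested genes.

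Stmn2 had 167, 139 and 164.5 CPM in the 22-week BPH/2J libraries, against 98.4, 102.5 and 82.8 CPM in 22-week BPN/3J. The groups were well apart, and the log2 difference was 0.73 ± 0.10 (SE, n = 3 libraries each; edgeR quasi-likelihood test, adjusted p = 0.00035). Emcn had 740.8, 616 and 656 CPM in 22-week BPH/2J and 497, 529 and 421 CPM in 22-week BPN/3J. Every BPH/2J library of this age was above every BPN/3J library, with a log2 difference of 0.48 ± 0.11 (SE, n = 3 each; edgeR adjusted p = 0.00644). Fbln5 had 162, 177 and 182 CPM in 22-week BPH/2J and 119, 148 and 156 CPM in 22-week BPN/3J. Its groups did not overlap either, but came close, and the log2 difference was 0.30 ± 0.09 (SE, n = 3 each; edgeR adjusted p = 0.0262). The Fbln5 call was lost without 22-week BPH/2J replicate 2 (adjusted p = 0.07), without 22-week BPH/2J replicate 3 (adjusted p = 0.0873) and without BPN/3J replicate 1 (adjusted p = 0.0591), where the difference was 0.19, each by the same edgeR test. It was also lost with library sizes set to the pan-endothelial genes, at 0.14 (edgeR adjusted p = 0.321), where Stmn2 and Emcn stayed called. All 3 called genes, and no other marker, had groups that did not overlap, where 55.7% of tested genes had such groups, 29.3% in the higher and 26.4% in the lower direction.

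Bmx and Plvap were uncalled with wide intervals. Bmx had 24.5, 18.4 and 33.3 CPM in 22-week BPH/2J and 18.2, 19.9 and 23.1 CPM in 22-week BPN/3J, a log2 difference of 0.32 ± 0.21 (SE, n = 3 each; edgeR adjusted p = 0.254) with a 95% interval from -0.09 to 0.73. It was 0.0815 without 22-week BPH/2J replicate 3 and 0.51 without replicate 2 of that group, and was called in neither case. Plvap had 63.9, 46.7 and 126.3 CPM in 22-week BPH/2J and 58.6, 62.6 and 69.8 CPM in 22-week BPN/3J. One BPH/2J library was above all and one below all of the BPN/3J libraries. The log2 difference of Plvap was 0.31 ± 0.29 (SE, n = 3 each; edgeR adjusted p = 0.426), and it was -0.20 without 22-week BPH/2J replicate 3.

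Mgp, Clu and Nr2f2 had smaller differences. Mgp had 165, 115 and 216.5 CPM in 22-week BPH/2J and 149.5, 181 and 154 CPM in 22-week BPN/3J, with overlapping groups and a log2 difference of 0.03 ± 0.18 (SE, n = 3 each; edgeR adjusted p = 0.903). Clu had 68.9, 57.5 and 90.8 CPM in 22-week BPH/2J and 62.6, 87.1 and 81.2 CPM in 22-week BPN/3J, a log2 difference of -0.09 ± 0.16 (SE, n = 3 each; edgeR adjusted p = 0.681). Without 22-week BPH/2J replicate 3 these differences were -0.21 for Mgp and -0.28 for Clu, neither of them called. Nr2f2, the regulator of vein identity, had 26.6, 25.6 and 30.6 CPM in 22-week BPH/2J and 23.2, 26.1 and 28.8 CPM in 22-week BPN/3J. Its log2 difference of 0.08 ± 0.10 (SE, n = 3 each; edgeR adjusted p = 0.527) had a 95% interval from -0.11 to 0.28, the narrowest interval among the uncalled markers.

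**Figure D2:**
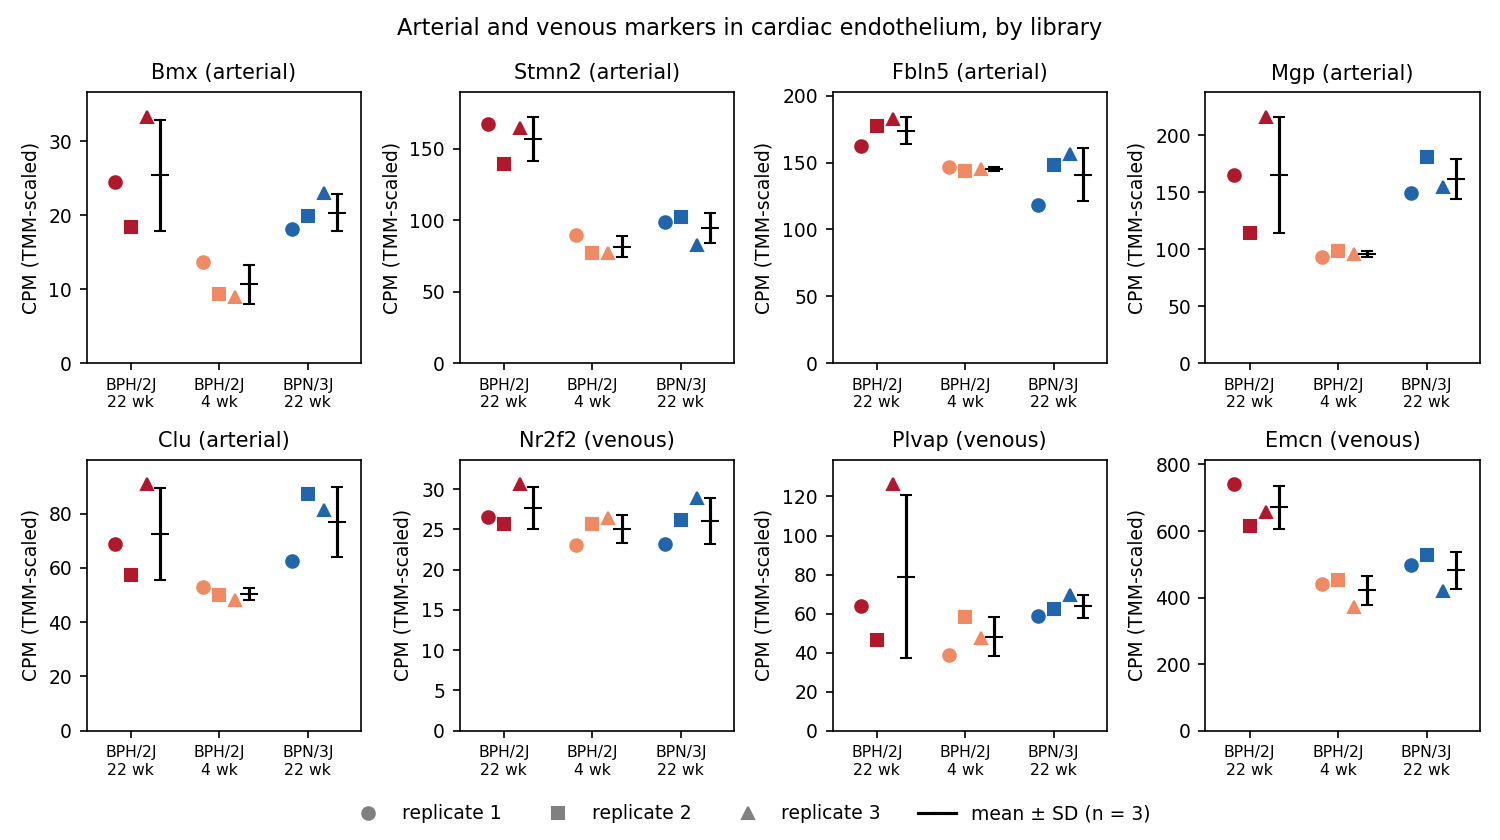
TMM-scaled CPM of each marker by library, with 1 point per library, a symbol for the replicate number and the mean ± SD of 3 libraries beside each group. Stmn2 and Emcn of 22-week BPH/2J lie above both other groups, and the 22-week BPH/2J libraries of Bmx, Mgp, Clu and Plvap are widely spread.

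At 22 against 4 weeks of age in BPH/2J, all 5 arterial markers and Emcn were higher, while Plvap and Nr2f2 did not pass the test. Bmx was 2.38-fold, Stmn2 1.93-fold, Mgp 1.73-fold, Emcn 1.59-fold, Clu 1.44-fold and Fbln5 1.2-fold higher at 22 weeks. Of the 8 markers 6 were called higher and 0 lower, where 41.0% of tested genes were called, 19.9% higher and 21.1% lower. At an unadjusted p under 0.05, 7 were higher and 0 lower, and DESeq2 and limma-voom also called 0 lower. The median log2 difference was 0.69 over the 8 markers and 0.00 over all tested genes. The 22-week values are those given above.

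Bmx had 13.7, 9.34 and 8.995 CPM in the 4-week BPH/2J libraries, below every 22-week BPH/2J library, and its log2 difference was 1.25 ± 0.22 (22-week over 4-week BPH/2J, SE, n = 3 each; edgeR adjusted p = 0.0013). Stmn2 had 89.7, 77.4 and 76.7 CPM at 4 weeks, a log2 difference of 0.95 ± 0.10 (SE, n = 3 each; edgeR adjusted p = 6.52e-05). Emcn had 442, 452 and 372 CPM at 4 weeks, a log2 difference of 0.67 ± 0.11 (SE, n = 3 each; edgeR adjusted p = 0.000876). Without 22-week BPH/2J replicate 3 the Bmx difference was 1.01 and still called. For these 3 genes the lowest 22-week library was well above the highest 4-week library.

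Mgp had 93.2, 98.2 and 96.1 CPM at 4 weeks and a log2 difference of 0.79 ± 0.18 (SE, n = 3 each; edgeR adjusted p = 0.00575). Its 4-week libraries were within 1.05-fold of each other, while the 22-week libraries spanned 1.89-fold. Without 22-week BPH/2J replicate 3 the Mgp difference was 0.55 and still called. Clu had 52.9, 50.2 and 48.3 CPM at 4 weeks and a log2 difference of 0.52 ± 0.16 (SE, n = 3 each; edgeR adjusted p = 0.0229). Fbln5 had 147, 143 and 145 CPM at 4 weeks and a log2 difference of 0.26 ± 0.09 (SE, n = 3 each; edgeR adjusted p = 0.0445). The groups of both genes were apart but near each other. The Clu call was lost without 22-week BPH/2J replicate 3, where the difference was 0.33 (edgeR adjusted p = 0.0851), and without 4-week replicate 2 or 3 (edgeR adjusted p = 0.0572 and 0.0702). The Fbln5 call was lost without 22-week BPH/2J replicate 2 or 3, without any one of the 4-week libraries and without BPN/3J replicate 2, with edgeR adjusted p values from 0.0511 to 0.13. Library sizes set to the pan-endothelial genes ended both calls (edgeR adjusted p = 0.0554 for Clu and 0.185 for Fbln5), and left those of Bmx, Stmn2, Mgp and Emcn.

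Plvap had 38.8, 58.3 and 47.7 CPM at 4 weeks, overlapping the 22-week libraries, with a log2 difference of 0.71 ± 0.30 (SE, n = 3 each; edgeR adjusted p = 0.0772, unadjusted p = 0.0357). The value turned on single libraries: it was 0.20 without 22-week BPH/2J replicate 3, and 0.98 without replicate 2 of that group, where it was called (edgeR adjusted p = 0.0126). Nr2f2 had 23.1, 25.7 and 26.5 CPM at 4 weeks, a log2 difference of 0.14 ± 0.10 (SE, n = 3 each; edgeR adjusted p = 0.29) with a 95% interval from -0.06 to 0.33. The 6 called markers were also those whose groups did not overlap, where 51.2% of tested genes had such groups, 25.5% in the higher and 25.7% in the lower direction.

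Young BPH/2J endothelium, set against 22-week BPN/3J, had less Bmx, Mgp and Clu RNA, all arterial markers, by 1.91-fold, 1.69-fold and 1.53-fold. The remaining 2 arterial and all 3 venous markers did not pass the test. Of the 8 markers 0 were called higher and 3 lower, where 53.1% of tested genes were called, 27.8% higher and 25.3% lower. At an unadjusted p under 0.05 the count was again 0 higher and 3 lower, and DESeq2 and limma-voom called 0 higher. The median log2 difference was -0.31 over the markers and 0.00 over all tested genes. This comparison shares its libraries with both others, so the 3 are not independent.

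The log2 difference of Bmx was -0.93 ± 0.22 (4-week BPH/2J over 22-week BPN/3J, SE, n = 3 each; edgeR adjusted p = 0.00466), that of Mgp was -0.75 ± 0.18 (edgeR adjusted p = 0.00483) and that of Clu was -0.61 ± 0.16 (edgeR adjusted p = 0.00789). In each of the 3 genes every 4-week BPH/2J library was below every BPN/3J library. Plvap also had groups that did not overlap, with 38.8 to 58.3 CPM in 4-week BPH/2J and 58.6 to 69.8 CPM in 22-week BPN/3J, but the nearest libraries were almost level. Its log2 difference of -0.40 ± 0.30 (SE, n = 3 each; edgeR adjusted p = 0.278) was not called. Groups that did not overlap were found in 4 of the 8 markers, all lower, and in 59.2% of tested genes, 30.5% in the higher and 28.7% in the lower direction. Stmn2 differed by -0.22 ± 0.10 (edgeR adjusted p = 0.0916), Emcn by -0.19 ± 0.11 (edgeR adjusted p = 0.16), Nr2f2 by -0.05 ± 0.10 (edgeR adjusted p = 0.671) and Fbln5 by 0.04 ± 0.09 (edgeR adjusted p = 0.732) on the log2 scale. Stmn2 was the nearest of these to a call, and gained it without 4-week BPH/2J replicate 1 (edgeR adjusted p = 0.027) or without BPN/3J replicate 3 (edgeR adjusted p = 0.0286).

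**Figure D3:**
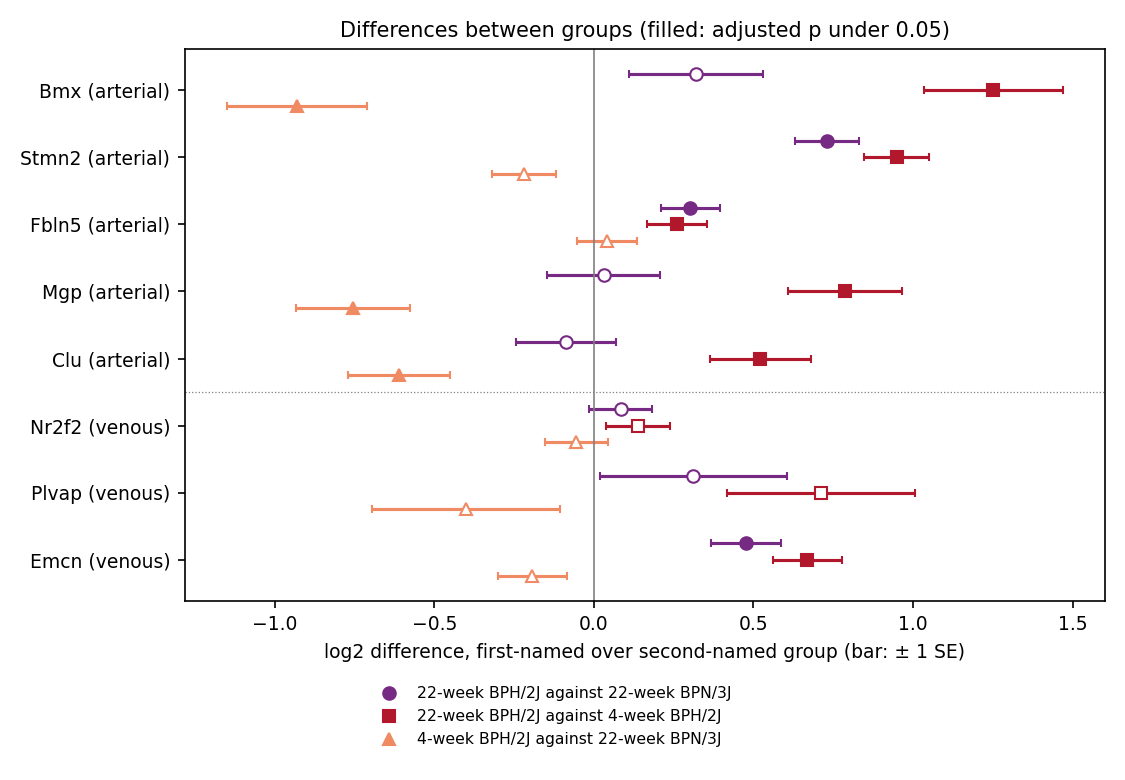
Log2 difference of each marker in the 3 comparisons, with bars of 1 SE, filled symbols for an adjusted p under 0.05, and a dotted line between arterial and venous markers. All 5 arterial markers and Emcn are filled for 22-week against 4-week BPH/2J, and Nr2f2 lies close to 0 in each comparison.

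The authors' deposited table gives its own log2 fold changes, with the first-named group over the second. For 4-week over 22-week BPH/2J the authors' deposited table had a false discovery rate under 0.05 for 7 of the 8 markers, where 34.0% of its genes had one. The additional gene was Plvap, with -0.72 and a false discovery rate of 0.0147 in the authors' deposited table. The other 2 pairwise comparisons in the authors' deposited table called the same 3 markers each as above, beside 33.2% of genes for 22-week BPN/3J over 22-week BPH/2J and 45.6% for 4-week BPH/2J over 22-week BPN/3J. A further comparison in the authors' deposited table sets 22-week BPH/2J over the mean of both other groups and had 30.1% of genes under that rate. There the authors' deposited table lists Stmn2 at 0.85 (false discovery rate 1.28e-18), Bmx at 0.80 (1.59e-05), Emcn at 0.58 (3.35e-07), Plvap at 0.52 (0.0452), Mgp at 0.42 (0.0109) and Fbln5 at 0.29 (0.00582). Clu, at 0.23 (0.162), and Nr2f2, at 0.12 (0.375), were above the 0.05 rate in that part of the authors' deposited table.

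Other genes of arterial and venous identity moved in both directions. Of 22 further arterial genes, 8 were higher and 6 lower in 22-week BPH/2J than in 22-week BPN/3J, with a median log2 difference of 0.06. Among all tested genes 19.8% were called higher and 18.2% lower in that comparison. Gja4, a connexin of arterial gap junctions, averaged 75.4 CPM in 22-week BPH/2J and 27.3 CPM in 22-week BPN/3J, and Unc5b, a guidance receptor, averaged 359 and 206 CPM. Those were the rises with the smallest adjusted p (edgeR, 2.55e-05 and 3.12e-05). Sox17, a transcription factor of arterial specification, fell to 147 CPM in 22-week BPH/2J, against 238 CPM in 22-week BPN/3J (edgeR adjusted p = 3.01e-05). 8430408G22Rik, also known as Depp1, fell to 213 CPM, against 562 CPM (edgeR adjusted p = 0.000698). The ephrin ligand Efnb2 and the connexin Gja5, both textbook arterial genes, differed by 0.21 ± 0.06 and 0.71 ± 0.09 on the log2 scale (SE, n = 3 each; edgeR adjusted p = 0.0164 and 0.000154); they were chosen after their values were seen.

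With age in BPH/2J, 10 of these 22 arterial genes rose and 2 fell, with a median log2 difference of 0.28. Among all tested genes 19.9% rose and 21.1% fell. The chemokine Cxcl12 averaged 3229 CPM at 22 weeks and 1778 CPM at 4 weeks (edgeR adjusted p = 3.56e-05), and Igfbp3, which binds insulin-like growth factors, averaged 458 CPM at 22 weeks and 252 CPM at 4 weeks (edgeR adjusted p = 0.000144). Elastin, Eln, to whose fibres Fbln5 binds, went the other way, with 104 CPM at 22 weeks and 166.5 CPM at 4 weeks (edgeR adjusted p = 0.0142). Notch1 was also lower at 22 weeks, by 0.33 on the log2 scale (449 against 564.5 CPM, edgeR adjusted p = 0.0461). In 4-week BPH/2J against 22-week BPN/3J, 4 arterial genes were higher and 8 lower, with a median of -0.17. Epas1, a hypoxia-responsive transcription factor, averaged 1602 CPM in 4-week BPH/2J and 2881 CPM in 22-week BPN/3J (edgeR adjusted p = 9.77e-06). Sox17 was lower there as well, at 114 against 238 CPM (edgeR adjusted p = 8.47e-07), while Unc5b and Gja4 were higher in 4-week BPH/2J, by 0.97 and 1.12 on the log2 scale (edgeR adjusted p = 3.86e-06 and 6.43e-05).

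Of 14 further venous genes, 13 were tested, and 4 were higher and 0 lower, by the adjusted or the unadjusted edgeR p, in 22-week BPH/2J than in 22-week BPN/3J, with a median log2 difference of 0.26. By the adjusted p, 19.8% of all tested genes were higher and 18.2% lower. Aplnr, the apelin receptor, had the largest difference of the venous list, with 365, 498 and 378.5 CPM in 22-week BPH/2J and 71.6, 56.9 and 73.5 CPM in 22-week BPN/3J, a log2 difference of 2.62 ± 0.14 (SE, n = 3 each; edgeR adjusted p = 4.27e-07). Amigo2, a cell adhesion protein, averaged 47.6 CPM in 22-week BPH/2J and 31.6 CPM in 22-week BPN/3J (edgeR adjusted p = 0.00974). Ephb4, the venous receptor for Efnb2, chosen after its value was seen, was 0.26 ± 0.08 higher on the log2 scale (SE, n = 3 each; edgeR adjusted p = 0.0286).

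With age, 6 of the 13 venous genes rose and 3 fell, with a median of 0.37, where 19.9% of all tested genes rose and 21.1% fell. Amigo2 averaged 47.6 CPM at 22 weeks and 25.7 CPM at 4 weeks in BPH/2J (edgeR adjusted p = 0.000966). Aplnr and Nrp2, a co-receptor of veins and lymphatics, fell, with 414 and 701 CPM at 22 weeks against 681 and 1162 CPM at 4 weeks (edgeR adjusted p = 0.00149 and 0.000414). In 4-week BPH/2J against 22-week BPN/3J, 5 venous genes rose and 3 fell, and the median of -0.30 had the sign of the fewer. Aplnr and Nrp2 were higher in 4-week BPH/2J, by 3.34 and 1.06 on the log2 scale (edgeR adjusted p = 6.33e-08 and 1.62e-05). The interleukin receptor Il1r1 was lower, with a log2 difference of -0.35 (edgeR adjusted p = 0.0099).

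Markers of other cells that use the 8 genes moved with some of these results. Among 8 endocardial genes, 5 rose with age in BPH/2J and 1 fell, where 19.9% of all tested genes rose and 21.1% fell. The summed level of these endocardial genes was 382 to 609 CPM at 22 weeks and 249.9 to 294 CPM at 4 weeks in BPH/2J, and 676.5 to 703 CPM in 22-week BPN/3J. Bmp6, with the highest mean of them over the 9 libraries, averaged 195 CPM at 22 weeks and 55.4 CPM at 4 weeks in BPH/2J, and 378 CPM in 22-week BPN/3J, and Hapln1 was lowest, with at most 1.73 CPM in any library. The sums thus lean on Bmp6. Between the strains at 22 weeks, 7 of the 8 endocardial genes had a positive log2 difference, with a median of 0.105. Of the 8, 1 was called higher and 1, Bmp6, lower in 22-week BPH/2J. The mean log2 level of the list, centred over the 9 libraries, overlapped there. It was -0.11 to 0.58 in 22-week BPH/2J and -0.10 to 0.28 in 22-week BPN/3J. Among 12 capillary genes, 9 also rose with age and 1 fell, at 17120 to 19220 CPM summed at 22 weeks against 12490 to 12930 CPM at 4 weeks, with the fatty acid binding protein Fabp4 highest in the mean over the 9 libraries. Against 22-week BPN/3J, 10 of the 12 capillary genes were lower in 4-week BPH/2J and 4 were lower and 1, Aqp7, higher in 22-week BPH/2J. Of all tested genes, 25.3% were lower in 4-week BPH/2J, and 18.2% were lower and 19.8% higher in 22-week BPH/2J. Aqp7, a water and glycerol channel named after its value was seen, averaged 232.9 CPM in 22-week BPH/2J and 139 CPM in 22-week BPN/3J (edgeR adjusted p = 0.00109). With the mean log2 level of the endocardial list as a covariate, chosen after seeing the data, Stmn2 was the only marker called for age, at 0.71, and the differences of Bmx, Mgp and Plvap were 0.57, 0.01 and -0.37. In that fit 1209 of the 15277 genes were called for age, against 6257 without the covariate. The level of the list does not overlap between the ages of BPH/2J, so the covariate takes up part of the age term by construction. The part of endocardial or capillary cells in these results was not tested.

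**Figure D4:**
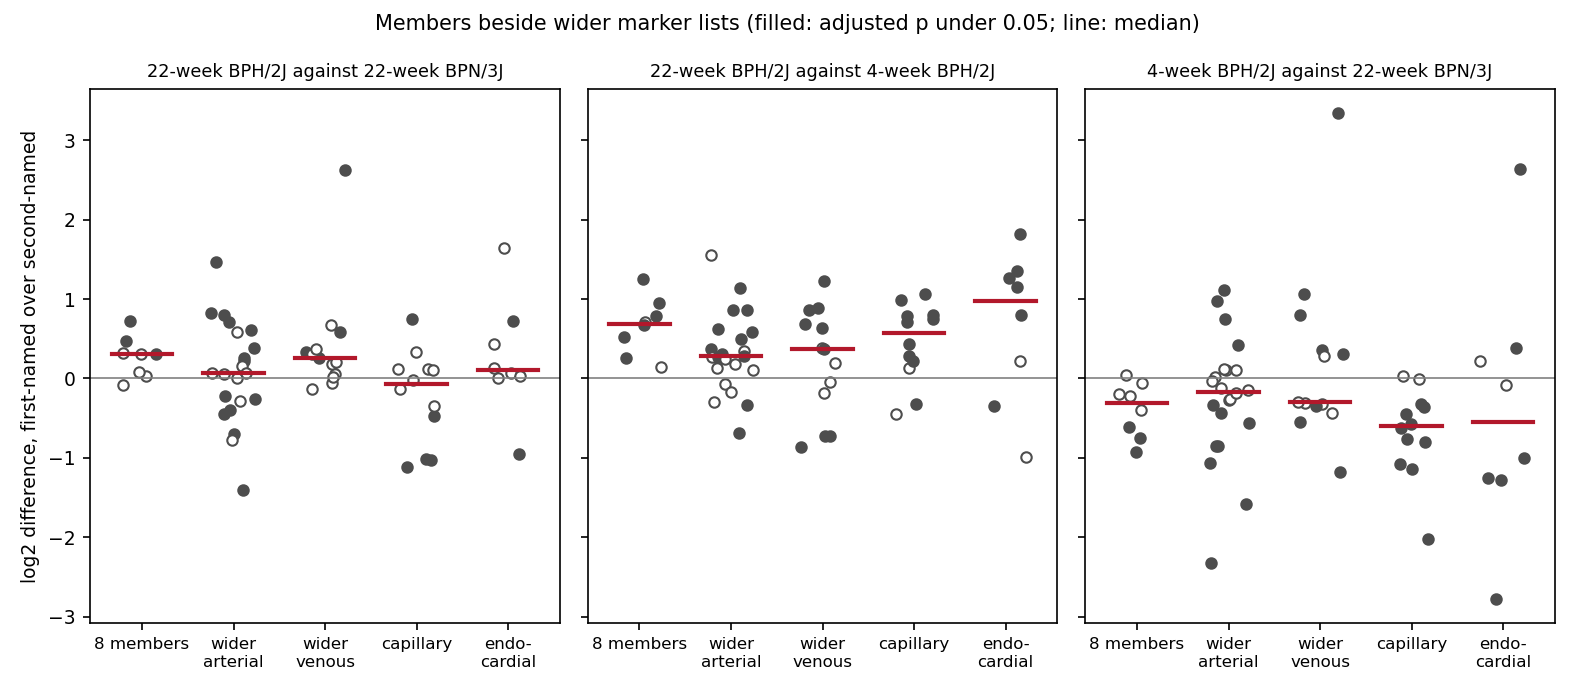
Log2 differences of the 8 markers and of the genes of 4 wider lists in the 3 comparisons, with 1 point per gene, filled for an adjusted p under 0.05, and a line at each median. The 8 markers, the capillary list and the endocardial list have medians of 0.69, 0.57 and 0.98 for 22-week against 4-week BPH/2J. The wider arterial and wider venous lists have lower medians there, of 0.28 and 0.37.

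Genes of muscle, stroma and blood were measured as well. Of all tested genes, 19.9% were called higher and 21.1% lower for age in BPH/2J. Against 22-week BPN/3J these shares were 19.8% and 18.2% for 22-week BPH/2J and 27.8% and 25.3% for 4-week BPH/2J. Smooth muscle, which makes Mgp and Clu, had 7 genes that summed to 584 to 737 CPM in 22-week BPH/2J, 526 to 697 CPM in 4-week BPH/2J and 672 to 744 CPM in 22-week BPN/3J, and 0 were called for age by edgeR, with 1 higher and 1 lower at an unadjusted p under 0.05. Its gene Myh11 differed by 0.15 on the log2 scale with age (edgeR adjusted p = 0.375). In 4-week BPH/2J against 22-week BPN/3J, 1 of the 7 was higher and 2 were lower, with a median log2 difference of -0.16. The mean log2 level of the list, centred over the 9 libraries, was -0.41 to -0.02 in 4-week BPH/2J and 0.155 to 0.245 in 22-week BPN/3J. In 22-week BPH/2J against 22-week BPN/3J, 0 were higher and 1 was lower. The part of smooth muscle RNA in the Mgp and Clu results was not tested. Of 10 fibroblast genes 2 rose and 5 fell with age, with 469 to 552 CPM summed at 22 weeks and 559 to 883 CPM at 4 weeks in BPH/2J, and 549.9 to 629 CPM in 22-week BPN/3J. Dcn averaged 219 CPM at 22 weeks and 133 CPM at 4 weeks (edgeR adjusted p = 0.0179). Col3a1, chosen after its value was seen, went the other way, with 80.8 CPM at 22 weeks and 220.2 CPM at 4 weeks (edgeR adjusted p = 0.00116). Of 9 tested cardiomyocyte genes, Myl2 among them, 6 were lower in 22-week BPH/2J than in 22-week BPN/3J and 7 were lower in 4-week BPH/2J. Their sums were 387 to 462 CPM in 22-week BPH/2J, 282 to 462 CPM in 4-week BPH/2J and 667 to 829.9 CPM in 22-week BPN/3J, with Myl7 at most 0.64 CPM in any library. With the mean log2 level of this list as a covariate, 1 marker, Stmn2, was called for 22-week BPH/2J against 22-week BPN/3J and 0 for 4-week BPH/2J against 22-week BPN/3J. In those fits 3362 and 2257 of the 15277 genes were called, against 5810 and 8115 without the covariate. The level of the list does not overlap between the strains, so the covariate takes up part of the strain term by construction. Between the ages of BPH/2J the level overlaps. There the covariate left 4683 genes and 4 markers called, against 6257 and 6 without it. The part of cardiomyocyte RNA in the marker results was not tested. All 10 macrophage genes, led by Lyz2, fell with age, at 218 to 253 CPM summed at 22 weeks against 438 to 837 CPM at 4 weeks, and 8 were lower and 1, Cx3cr1, higher in 22-week BPH/2J than in 22-week BPN/3J, where they summed to 370 to 641 CPM. Cx3cr1, the fractalkine receptor, named after its value was seen, averaged 5.93 CPM in 22-week BPH/2J and 2.91 CPM in 22-week BPN/3J (edgeR adjusted p = 0.0348). Of 8 pericyte genes, led by Rgs5, 1 rose and 2 fell with age, and 1 rose and 1 fell against BPN/3J. Of 5 tested lymphatic genes, led by Lyve1, and 3 tested Schwann cell genes, edgeR called 0 in each comparison. At an unadjusted p under 0.05, 1 gene of each list was higher in 22-week BPH/2J than in 22-week BPN/3J and 1 of each than in 4-week BPH/2J.

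Genes of neurons were set beside Stmn2, which is known mainly from these cells. Of 13 listed neuron genes 7 were measured and summed to 24.2 to 32.3 CPM in 22-week BPH/2J, 29.3 to 33.7 CPM in 4-week BPH/2J and 14.9 to 21.2 CPM in 22-week BPN/3J, where Stmn2 alone ran from 76.7 to 167 CPM over the 9 libraries. Tubb3 and Nefm, which define neurons, reached at most 0.28 and 0.16 CPM. Uchl1, the most abundant of the neuron genes, averaged 19.3 CPM in 22-week BPH/2J, 28.1 CPM in 4-week BPH/2J and 14.0 CPM in 22-week BPN/3J. Syp, a synaptic vesicle protein, averaged 5.17 CPM in 22-week BPH/2J, 1.47 CPM in the 4-week libraries and 2.28 CPM in 22-week BPN/3J, and Stmn3, of the same family as Stmn2, averaged 1.36, 0.567 and 0.687 CPM. Both had the order of group means that Stmn2 had, at lower levels, and Uchl1 did not. Of 5 tested neuron genes 3 were higher in 22-week BPH/2J than in 22-week BPN/3J, Syp and Stmn3 among them (edgeR adjusted p = 0.000462 and 0.0281). At an unadjusted edgeR p under 0.05, 5 were higher and 0 lower there, with a median log2 difference of 1.135. The mean log2 level of the list, centred over the 9 libraries, was 0.33 to 0.68 in 22-week BPH/2J and -0.85 to -0.31 in 22-week BPN/3J. With age, 2 neuron genes, Syp and Stmn3, rose and 2 fell. Of all tested genes 19.8% were called higher and 18.2% lower between the strains, and 19.9% and 21.1% for age. Syp and Stmn3 were chosen after their values were seen, and the part of neuronal RNA in the Stmn2 result was not tested. Plvap overlaps Gtpbp3 on the opposite strand, and the sources used here do not say whether counting used strand. Gtpbp3 reached at most 30.3 CPM, and its part in the Plvap count was not tested.

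The spread among 22-week BPH/2J libraries was uneven across the markers. Replicate 3 was 2.70 times replicate 2 in Plvap, 1.89 times in Mgp, 1.81 times in Bmx and 1.58 times in Clu, against 1.18 times in Stmn2, 1.07 times in Emcn and 1.03 times in Fbln5. A group of 5 markers, Bmx, Mgp, Clu, Nr2f2 and Plvap, had replicate 3 highest and replicate 2 lowest. The same order was found in 5 of 8 endocardial genes, 8 of 22 arterial, 4 of 14 venous, 1 of 12 capillary and 1 of 12 pan-endothelial genes, and in 18.7% of all tested genes. The endocardial genes Smoc1, Cytl1 and Npr3 had ratios of replicate 3 to replicate 2 of 2.98, 2.26 and 2.19. This order was looked for after the values had been seen, and is given as a description of 3 libraries.

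**Figure D5:**
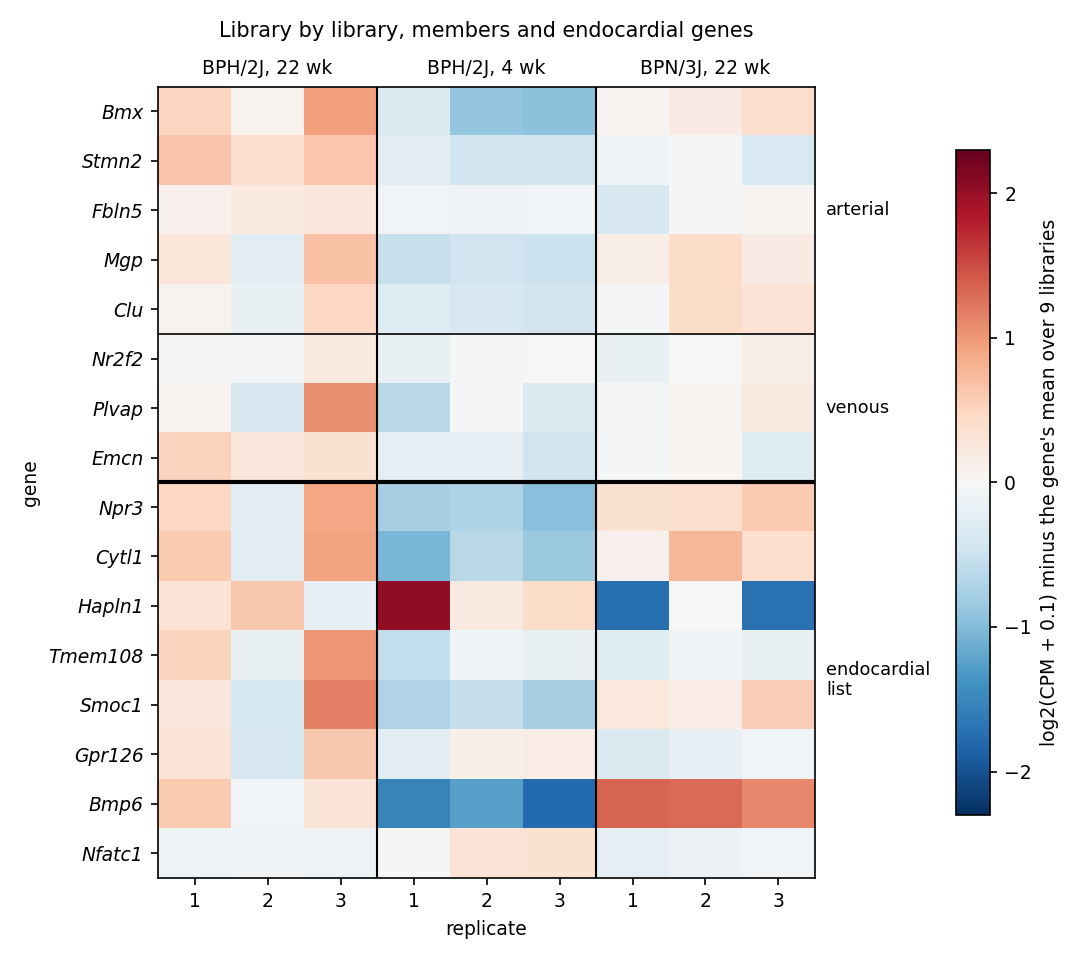
Each marker and each of the 8 endocardial genes by library, as log2(CPM + 0.1) minus the gene's mean over the 9 libraries, in red above and blue below that mean. Replicate 3 of 22-week BPH/2J is the reddest of its group in Bmx, Mgp, Clu and Plvap and in 5 of the endocardial genes, and Stmn2 and Emcn lack that step.

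Genes most like each marker across the 9 libraries were found by the root mean square difference of centred log2 CPM among 10151 genes. For Stmn2 they were Pltp, a phospholipid transfer protein, at 0.07 and Tm4sf1, a membrane protein of endothelium, at 0.09. For Emcn they were Fbxo22 at 0.08 and Gnal at 0.09, for Bmx Ccdc152 at 0.14, and for Mgp Enpp6 and Eps8l2, both at 0.15. For Clu they were Lrig1 at 0.11 and Rnd2 at 0.12, and for Plvap Dpp4 and Comp, both at 0.17. Fbln5 had Tada2a and Kctd13 at 0.08, and Nr2f2 had Rhot2 at 0.06 and Actr5 at 0.07. Among the markers themselves, Stmn2 was nearest to Emcn at 0.15, across the arterial and venous labels, and Mgp and Clu, both arterial, were nearest to each other at 0.15. Plvap and Bmx were each nearest to Mgp, at 0.26 and 0.29, and Fbln5 and Nr2f2 were nearest to each other at 0.12.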

How the data were processed

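Per the labels' protocols, endothelial cells were taken from heart tissue with Miltenyi microbeads, and polyA RNA was sequenced with 100-cycle single reads. Without roles, build mm9, edgeR, Subread, featureCounts, Bowtie2, TopHat2 2.0.13, FastQC and CASAVA 1.8.2 are named in the submitters' processing notes. Per the file headers and values, the authors deposited raw counts, CPM values equal to each count over its column total, and gene lengths. The authors also deposited log2 fold changes, p-values and false discovery rates of their own comparisons, by a model not given in the sources used here.

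Genes were kept by filterByExpr, and edgeR 4.0.16 fitted all 9 libraries together by group, with TMM scaling and its quasi-likelihood test. Tests were two-sided, p-values were adjusted across the 15277 tested genes, and calls needed an adjusted p under 0.05. SEs are the absolute log2 difference over the square root of F, and 95% intervals span 1.96 SEs. CPM per kilobase divides by the deposited length. Reads carry no molecular identifiers, so no value corrects for amplification.

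The markers, the lists of other cell types and the rule for named genes were chosen with earlier results of these data known. The rule took all 8 markers, the 2 arterial and 2 venous genes of smallest adjusted p per direction and comparison, the most abundant gene of each other list and the 2 nearest genes of each marker at a mean of at least 5 CPM. Some genes that this rule names are not reported here. Fits in DESeq2 1.42.0 and limma 3.58.1 and the other alternatives are given in the closing section. Residuals of libraries with equal replicate numbers correlated at -0.16 to 0.08, so numbers were not used as pairs. The procedure was tested on simulated data. Software versions were Python 3.11.15, matplotlib 3.10.9 and R 4.3.3.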

Additional observations from a re-analysis of the deposited data

How the results depend on the processing

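Over the 24 marker differences and 24 alternatives, 511 values kept their direction and their side of the threshold and 27 changed sign. Of the others, which kept their sign, 32 lost their call and 6 gained one. Scaling by upper quartiles, by median of ratios or by TMM after removal of genes of other cell types, both filters on low counts, DESeq2, and the smooth muscle and pericyte covariate changed no call. Replicate numbers do not pair the libraries; with a replicate block, 5261 genes were called for 22-week BPH/2J against BPN/3J, 5758 for 22-week against 4-week BPH/2J and 7723 for 4-week BPH/2J against BPN/3J, and 3, 6 and 3 markers. Without the block the counts in that order were 5810, 6257 and 8115 genes. At a threshold of 0.01 the 3 comparisons, in the same order, called 3432, 3871 and 5894 genes and 2, 4 and 3 markers. Fbln5 lost both its calls there and Clu its call for age. Library sizes set to the pan-endothelial genes moved the median of all genes to -0.14 in 22-week BPH/2J against BPN/3J. The split was then 1326 higher and 4622 lower, against 3024 and 2786 with TMM. For 22-week against 4-week BPH/2J it was 2043 and 3961, against 3039 and 3218, and for 4-week BPH/2J against BPN/3J 3271 and 4562, against 4253 and 3862. Fbln5 lost both calls (0.14 and 0.18) and Clu its call for age (0.45) under that scaling, and Stmn2 gained a call in 4-week BPH/2J against BPN/3J (-0.30). Mgp and Nr2f2 against BPN/3J were -0.128 and -0.0789, and Fbln5 in 4-week BPH/2J against BPN/3J was -0.0456. Limma-voom gave Mgp at -0.0112 against BPN/3J, and a fibroblast covariate gave Fbln5 at -0.0524 in 4-week BPH/2J against BPN/3J. The cardiomyocyte list does not overlap between BPN/3J and BPH/2J, so its covariate takes up part of the strain term by construction. It left 3362 genes and 1 marker, Stmn2, called for 22-week BPH/2J against BPN/3J, with Clu at 0.0439, Nr2f2 at -0.0787 and Plvap at -0.26. It left 2257 genes and 0 markers for 4-week BPH/2J against BPN/3J, with Bmx at 0.001, Stmn2 at 0.18 and Emcn at 0.0167. For 22-week against 4-week BPH/2J, where the levels of the list overlapped, the cardiomyocyte covariate left 4683 genes and 4 markers called. Without it 6257 genes and 6 markers were called. The endocardial list does not overlap between the ages of BPH/2J, so its covariate takes up part of the age term by construction. It left 1209 genes and 1 marker called for age, with Clu at -0.11, Nr2f2 at -0.0573 and Plvap at -0.37. The endocardial covariate left 5422 genes and 0 markers called for 4-week BPH/2J against BPN/3J, with Nr2f2 at 0.0783 and Plvap at 0.26. For 22-week BPH/2J against BPN/3J it left 4830 genes and 4 markers called, 2 higher and 2 lower. The lower ones were Mgp at -0.24 and Clu at -0.29, and Plvap was at -0.11, not called. Leaving out each library in turn, the values that changed sign were Mgp (-0.21 to 0.24), Clu (-0.28 to 0.0569) and Plvap (-0.20 to 0.58) for 22-week BPH/2J against BPN/3J, and Fbln5 (-0.0684 to 0.12) and Nr2f2 (-0.13 to 0.025) for 4-week BPH/2J against BPN/3J. The cause of these changes was not tested. Plvap in 4-week BPH/2J against BPN/3J was called when only those groups were fitted (adjusted p = 0.0417).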
